A study of Mus musculus with 10 samples.

Results

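Of 10 RNA-seq libraries of mouse embryonic cortex at day 12, 5 carried clear levels of Dlx1, a homeodomain transcription factor gene of the ventral telencephalon, and 5 carried little or none. The libraries were divided by this value. Side A holds the 5 libraries with a Dlx1 level of 10 TPM or more, and side B the 5 libraries with a level under 5 TPM. TPM is the abundance of a transcript per unit of its length, scaled to a total of 1000000 in each library. Side A was made up of WT 3, WT 5, cKO 2, cKO 3 and cKO 4, and side B of WT 1, WT 2, WT 4, cKO 1 and cKO 5. The sides are not groups of the study, which compared 5 WT with 5 cKO embryos. The WT libraries are labelled Emx1 Cre/+; Zbtb7a +/+ and the cKO libraries Emx1 Cre/+; Zbtb7a fl/fl, so both genotypes carried the Cre driver. Emx1-Cre acts in the dorsal telencephalon, and cells of ventral origin keep the floxed allele. RNA was extracted with a column kit and enriched for poly(A). Litter is the batch named in the labels: WT 5 and cKO 5 came from litter 5, WT 3, WT 4 and cKO 4 from litter 3, and the remaining 5 libraries from litter 1. Side A thus drew 2 libraries from litter 1, 2 from litter 3 and 1 from litter 5, and side B drew 3, 1 and 1. In litter 1 both side A libraries were cKO. Each library is 1 animal, so the p-values rest on variation among animals from 3 litters, and the labels do not record how single cortices were dissected. The series text speaks of fewer cortices and litters than the sample labels, which were followed.

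The early telencephalon is divided into a dorsal part, the pallium, which forms the cortex and its glutamatergic neurons, and a ventral part, the subpallium, whose ganglionic eminences form GABAergic neurons. Progenitors of the lateral ganglionic eminence, next to the pallium, are known for Gsx2, which acts upstream of the Dlx genes. Dlx1 and Dlx2 act before Dlx5 and Dlx6 as GABAergic neurons form, and the enzymes and transporter of GABA follow. The medial ganglionic eminence lies further away and is set apart by Nkx2-1 and Lhx8.

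Pearson correlations of log2(TPM + 1) between libraries were 0.949 to 0.981 within side A, 0.964 to 0.985 within side B and 0.952 to 0.981 between the sides. The number of genes above 0 TPM was 18991 to 19944 in side A and 19178 to 19649 in side B. TPM keeps no read counts, so sequencing depth is not known. Globin genes took 4.17% to 5.57% of TPM in the 3 libraries of litter 3 and 1.73% to 2.64% in the others. Xist, which is transcribed from the inactive X chromosome, exceeded 20 TPM in 3 libraries of side A and in 1 of side B, so sex was not balanced between the sides. These libraries were WT 3, cKO 1, cKO 3 and cKO 4, so sex was not balanced between the genotypes either. With Xist as a covariate 7 genes passed between the sides in place of 16.

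Dlx1 (ENSMUSG00000041911, GRCm38 chromosome 2, 71528113 to 71533981, plus strand) chose the sides, so its values describe them and test nothing. Its level was 65.3 TPM in WT 5, 33.6 in cKO 2, 30.8 in cKO 3, 29.9 in cKO 4 and 13.6 in WT 3 on side A. On side B it was 3.62 TPM in cKO 1, 0.79 in WT 1, 0.37 in WT 4, 0.36 in WT 2 and 0.18 in cKO 5. WT 3, at 13.6 TPM, lay just inside side A, and cKO 1, at 3.62 TPM, just outside it. The mean was 34.6 ± 18.9 TPM in side A and 1.06 ± 1.45 in side B (SD, n = 5 each), and the log2 difference fitted with litter was 4.31 (SE 0.41). The spread inside side A was wide: WT 5 carried more than every other library and WT 3 the least.

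**Figure D1:**
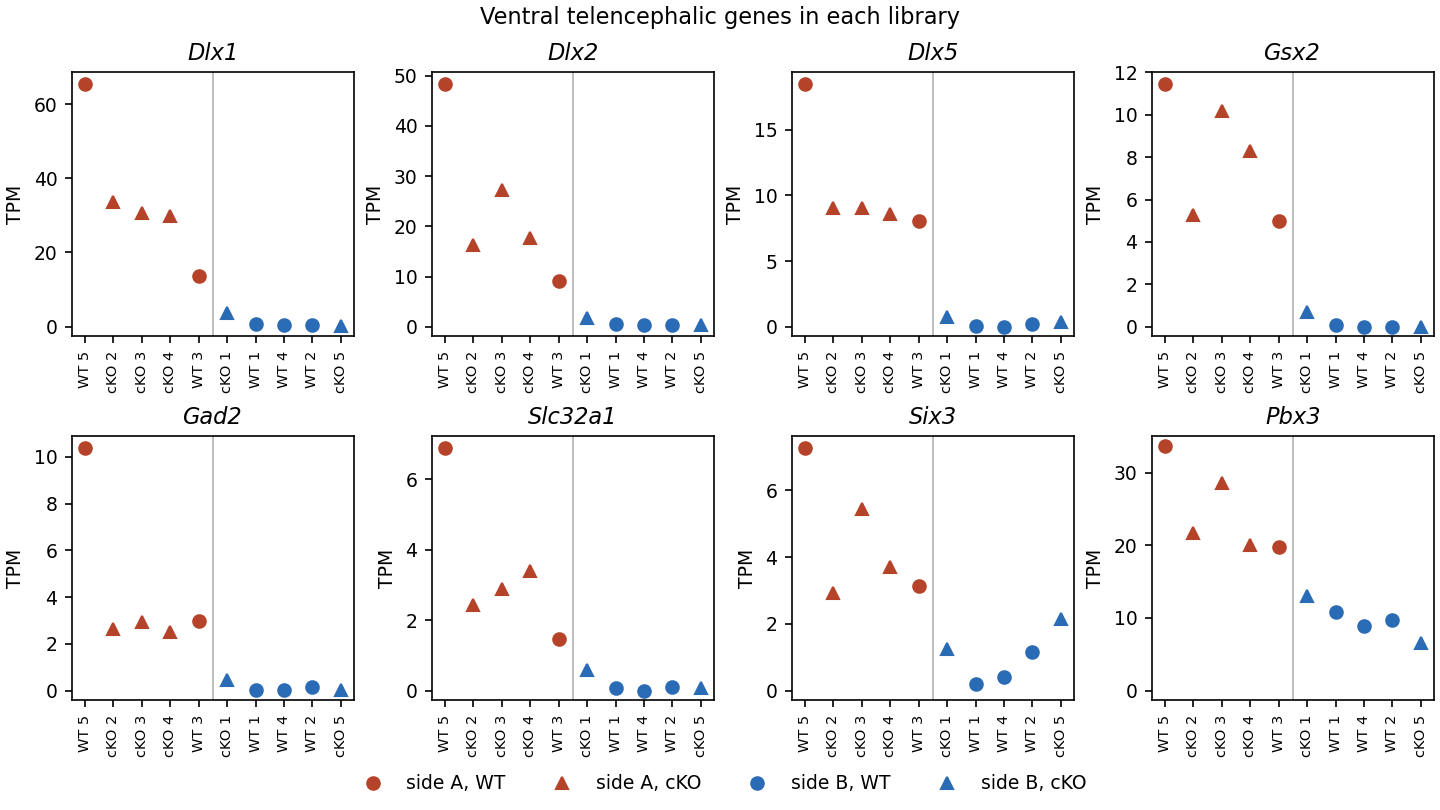
TPM (y axis, from 0) of 8 genes higher in side A in each of the 10 libraries (x axis, side A left of the line, each side ordered by falling Dlx1). Circles are WT and triangles cKO, 1 point is 1 library. WT 5 is the highest library for all 8 genes, and in each panel every side A library lies above every side B library, with cKO 1 the highest of side B in 7 of the 8 panels and cKO 5 in the panel of Six3.

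The other 4 ventral marker genes named with the rule divided the libraries in the same way, and the 5 highest libraries for Dlx2, for Dlx5, for Gsx2 and for Gad2 were the 5 of side A. Dlx2 (chromosome 2, 71543408 to 71546754), the neighbour of Dlx1 with a largely shared role, had 9.15 TPM in WT 3, 48.3 in WT 5, 16.3 in cKO 2, 27.2 in cKO 3 and 17.8 in cKO 4. On side B it had 0.62 TPM in WT 1, 0.40 in WT 2, 0.42 in WT 4, 1.75 in cKO 1 and 0.26 in cKO 5. All of side A lay above all of side B, with a log2 difference of 3.86 (SE 0.34). Dlx5 (chromosome 6, 6877805 to 6882085), which acts later in the same neurons, had 8.03 TPM in WT 3, 18.45 in WT 5, 9.05 in cKO 2, 9.06 in cKO 3 and 8.60 in cKO 4, against 0.06, 0.21, 0, 0.75 and 0.33 in WT 1, WT 2, WT 4, cKO 1 and cKO 5. The other libraries of side A were nearly level for it and WT 5 stood above them, with a log2 difference between the sides of 3.22 (SE 0.20). Gsx2 (chromosome 5, 75075601 to 75077893), the progenitor factor of the lateral eminence, had 4.98 TPM in WT 3, 11.4 in WT 5, 5.25 in cKO 2, 10.2 in cKO 3 and 8.27 in cKO 4. It was listed at 0 in WT 2, WT 4 and cKO 5 and had 0.08 TPM in WT 1 and 0.71 in cKO 1. The sides did not overlap, and the log2 difference was 2.99 (SE 0.25). Gad2, which encodes a glutamate decarboxylase that makes GABA, had 3.00 TPM in WT 3, 10.4 in WT 5, 2.65 in cKO 2, 2.93 in cKO 3 and 2.51 in cKO 4, and 0.01 to 0.46 TPM on side B (log2 difference 2.10, SE 0.28). WT 5 again stood above the rest, and the other side A libraries lay close together.

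The Dlx genes lie in convergent pairs, Dlx1 with Dlx2 and Dlx6 with Dlx5, and some have antisense partners. Dlx1as (chromosome 2, 71516454 to 71537891, minus strand) overlaps the whole of Dlx1 and had 5.11 to 16.5 TPM in side A and 0 to 2.81 in side B (log2 difference 2.91, SE 0.38). Dlx6os1 (chromosome 6, 6820189 to 6871592, minus strand), a long noncoding RNA that overlaps Dlx6, had 3.68 to 14.1 TPM in side A and 0 to 0.43 in side B (2.81, SE 0.26). No source used here says whether strand was used in counting, so reads of each gene and its antisense partner cannot be told apart. Dlx6 itself had 0.54 TPM in WT 3, 7.59 in WT 5, 1.29 in cKO 2, 4.70 in cKO 3 and 3.81 in cKO 4, and 0 to 0.16 on side B. It was not tested, because only 4 libraries reached 1 TPM. The family members Dlx3 and Dlx4 stayed at or under 0.53 TPM in every library and were not tested either. TPM is per length, so members can be set beside one another within a library. Dlx2 stood at 48.6% to 88.5% of the Dlx1 level across side A, Dlx5 at 26.9% to 59.1%, Gsx2 at 15.6% to 36.7% and Dlx6 at 3.84% to 15.3%. The ratios of Dlx5 and Gsx2 to Dlx1 were highest in WT 3, which had the least Dlx1.

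Start regions are shown for 3 of these genes. Dlx1 set the sides, and Slc32a1 shares its start region with another gene that was higher in side A. Among genes past the threshold, higher in side A and with a window, only Dlx6os1 held TAATTA, a homeodomain motif. Shorter or other homeodomain motifs were not searched for. Windows run from 250 bases before a start to 50 after it, 5′ to 3′ on the gene's strand, from RefSeq on GRCm38.p6. Capitals mark TAATTA, a palindrome and therefore the same on both strands, in the Dlx6os1 windows, and in the Slc32a1 window the 134 bases it shares with the window of Gm14204. Dlx1 is at chr2:71529195-71529494 (plus strand), the Dlx6os1 windows are at chr6:6869484-6869783 and chr6:6861634-6861933 (minus strand), and Slc32a1 is at chr2:158610508-158610807 (plus strand). The Dlx1 window and both Dlx6os1 windows lie inside the gene bounds given above. They do not cover the outermost start of either gene.
Dlx1: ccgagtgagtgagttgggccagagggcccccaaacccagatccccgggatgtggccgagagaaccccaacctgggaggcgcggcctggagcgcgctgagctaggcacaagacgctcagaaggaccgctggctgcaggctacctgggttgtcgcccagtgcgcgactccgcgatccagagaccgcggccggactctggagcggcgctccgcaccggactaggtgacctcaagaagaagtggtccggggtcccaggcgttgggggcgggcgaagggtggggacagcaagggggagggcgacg
Dlx6os1, upstream start: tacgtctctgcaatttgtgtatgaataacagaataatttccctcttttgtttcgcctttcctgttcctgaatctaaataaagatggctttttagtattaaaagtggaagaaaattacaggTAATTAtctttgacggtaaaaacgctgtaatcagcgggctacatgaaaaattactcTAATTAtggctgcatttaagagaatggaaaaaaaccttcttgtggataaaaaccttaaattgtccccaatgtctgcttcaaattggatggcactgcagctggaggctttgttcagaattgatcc
Dlx6os1, downstream start: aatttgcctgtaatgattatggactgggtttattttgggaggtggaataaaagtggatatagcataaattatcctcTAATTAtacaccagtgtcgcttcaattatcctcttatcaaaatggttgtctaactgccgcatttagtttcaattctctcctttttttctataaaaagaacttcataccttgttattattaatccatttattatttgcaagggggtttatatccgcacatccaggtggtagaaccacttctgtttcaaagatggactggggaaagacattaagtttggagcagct
Slc32a1: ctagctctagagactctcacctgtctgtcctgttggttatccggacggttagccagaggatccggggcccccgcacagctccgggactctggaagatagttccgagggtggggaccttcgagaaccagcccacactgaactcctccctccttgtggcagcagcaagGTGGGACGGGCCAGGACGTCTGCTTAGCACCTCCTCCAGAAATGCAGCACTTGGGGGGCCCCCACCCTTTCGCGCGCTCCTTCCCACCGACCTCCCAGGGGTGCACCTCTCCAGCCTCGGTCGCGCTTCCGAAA

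The motif TAATTA stood at positions -130 and -74 from the upstream Dlx6os1 start and at -174 from the downstream one. The window of Dlx1, which lies inside the annotated gene, held none. Of the 15 genes past the threshold and higher in side A, 10 had an entry with 11 windows in all, and 2 of the 11 windows, both of Dlx6os1, held it (18.2%). Over all 32851 windows the share was 5.29%, and over the 13011 windows of tested genes 2.54%. The Dlx6os1 windows were 35.7% and 35.3% G or C, against a median of 61.0% over windows of tested genes. A match of letters is a description of these windows and says nothing of binding. The starts of Slc32a1 and Gm14204 lie 35 bases apart on opposite strands, at 158610758 and 158610723 of chromosome 2.

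Across all genes, 13833 reached 1 TPM in 5 or more libraries and were fitted with limma on log2(TPM + 1) with litter as a term. The sides were chosen by Dlx1 in these same libraries, so the counts that follow describe the division and no p-value of it is given. At a Benjamini-Hochberg adjusted p under 0.05 there were 15 genes higher in side A, or 0.108% of those tested, and 1 lower, or 0.00723%. Every side A library lay above every side B library for 68 genes (0.492%) and below for 38 (0.275%), and 14 of the 16 genes past the threshold were among the 68. The median log2 difference of all tested genes was 0.01, and 55.3% of them were higher in side A. For 94.95% of them the 95% interval lay within 1 unit of log2(TPM + 1) on either side of 0. For low genes 1 unit on this scale is more than a 2-fold difference in TPM. The count was 5 to 18 when 1 library was left out: 7 without WT 1, 6 without WT 2, 9 without WT 3, 5 without WT 4, 8 without WT 5, 7 without cKO 3, 9 without cKO 4 and 8 without cKO 5. Dlx1, Dlx2, Dlx5, Gsx2 and Dlx6os1 were past the threshold in all 10 of these fits. Gm14204 passed in 9, Calb2 in 5, Mab21l1 and Pbx3 in 4, Gad2 in 3, Pid1 and Slc32a1 in 2, Dlx1as and Six3 in 1, and AW047730 and E130006D01Rik in 0. The filter also bears on the count, since 12 tested genes reached 1 TPM in the 5 side A libraries and in no other, and 6 of the 16 were such genes: Dlx5, Gsx2, Dlx6os1, Gm14204, Gad2 and Slc32a1.

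**Figure D2:**
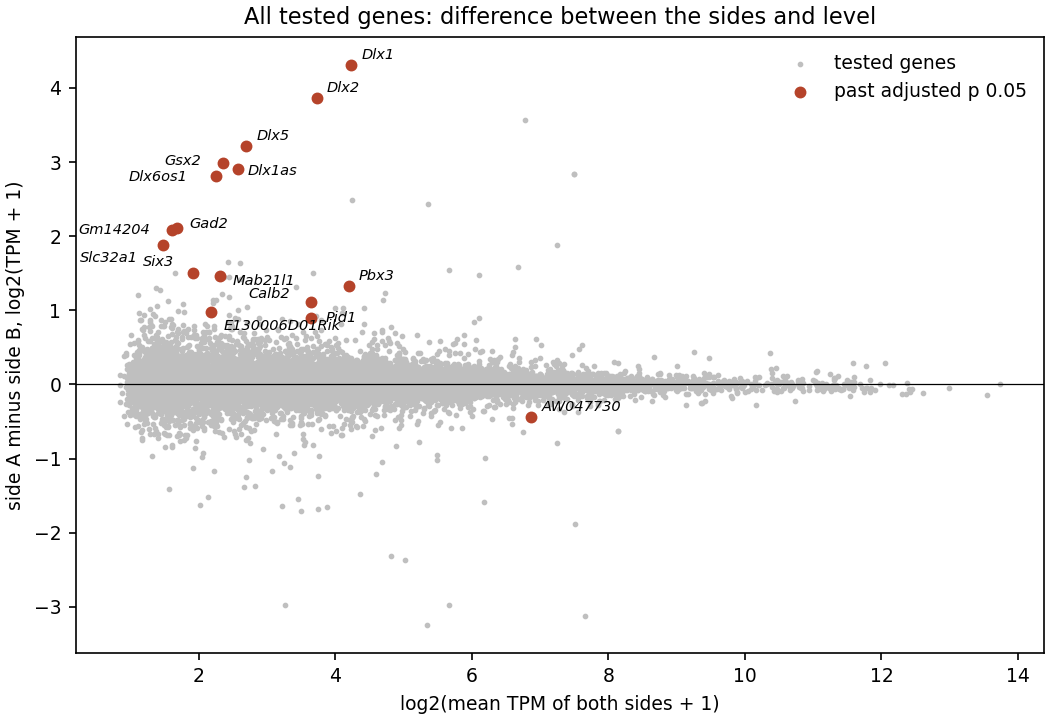
Difference between the sides (y axis, side A minus side B, log2(TPM + 1), fitted with litter) against level (x axis, log2 of the mean TPM of both sides plus 1) for the 13833 tested genes. The 16 coloured genes are past an adjusted p of 0.05: 15 lie above 0, led by Dlx1 at 4.31, and AW047730 lies below at -0.44. Uncoloured points far from 0 are genes that did not pass. Of the 12 such genes that differed by more than Slc32a1, the sides overlapped for 11.

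Beside the Dlx genes, Gsx2 and Gad2, the genes past the threshold included the transporter that loads GABA into synaptic vesicles and the transcription factor genes Six3 and Pbx3. Slc32a1, the vesicular GABA transporter gene, had 1.47 TPM in WT 3, 6.87 in WT 5, 2.44 in cKO 2, 2.87 in cKO 3 and 3.40 in cKO 4, and 0 to 0.58 on side B (log2 difference 1.88, SE 0.26). Its divergent neighbour Gm14204, a noncoding transcript, had 1.94 to 6.97 TPM against 0 to 0.20 (2.08, SE 0.22). Both were low on side B in every library, and cKO 1 was the highest there. Six3, a homeobox gene of the rostral forebrain and the young striatum, had 2.94 to 7.27 TPM in side A and 0.20 to 2.16 in side B (1.51, SE 0.22). Pbx3, a homeodomain partner of Meis and Hox proteins, was present on both sides, at 19.8 to 33.7 TPM in side A and 6.56 to 13.02 in side B (1.32, SE 0.18). Mab21l1, a gene of the Mab-21 family, had 4.64 to 8.26 TPM against 1.2 to 2.10 (1.46, SE 0.18). For all 5 of these genes the sides did not overlap.

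Calb2, the calretinin gene, did not overlap between the sides, with 12.2 to 18.8 TPM in side A and 6.15 to 7.47 in side B (1.11, SE 0.13). Calretinin marks Cajal-Retzius cells and olfactory neurons as well as some interneurons, so the gene stood in 3 of the lists below. Pid1, which encodes an adaptor protein with a phosphotyrosine interaction domain, had 13.2 to 17.8 TPM against 6.26 to 9.25 (0.90, SE 0.12). The long noncoding RNA E130006D01Rik had 2.74 to 5.84 TPM against 1.11 to 3.03, and here the sides overlapped in WT 3 (0.98, SE 0.15). These 3 were named because so few genes passed, after their values were seen for Pid1 and E130006D01Rik.

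Over the 15 higher genes, cKO 1 was the highest library of side B for 12. WT 5 was the highest of side A for 11, and WT 3 the lowest of side A for 11. The libraries thus differed by degree inside each side as well. With log2(Dlx1 TPM + 1) as a continuous term in place of the sides, 41 genes passed, of which 15 were among the 16.

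The ventral progenitor list held 18 genes, of which 11 were tested and 5 passed (Dlx1, Dlx2, Gsx2, Gad2 and Six3), all higher in side A. Dlx1 set the sides, and Gsx2, Gad2 and Olig2 were tested only through side A, so neither the count, beside the 0.108% over all tested genes, nor a median is read from this list. Olig2, a basic helix-loop-helix factor of ventral progenitors, had 1.89 TPM in WT 3, 7.36 in WT 5, 1.79 in cKO 2, 3.09 in cKO 3 and 4.47 in cKO 4, and 0.31 to 0.83 on side B (1.5, SE 0.26, not past the threshold). The sides did not overlap for it. Sp8 (0.07), Rgs16 (0.06) and Zfp503 (0.17) lay near 0, and Otx2, a gene also of the cortical hem and choroid plexus, was lower in side A (-0.57). The other 7 members were under the filter: Gsx1, Olig1, Nkx2-1, Nkx6-2, Sp9, Vax1 and Lhx8. Vax1, a homeobox gene of the ventral forebrain, was listed at 0 in all 5 libraries of side B and had 0.64 TPM in WT 3, 8.82 in WT 5, 1.04 in cKO 2, 2.45 in cKO 3 and 2.87 in cKO 4. Sp9, a zinc finger factor of ganglionic eminence neurons, had 0.93, 5.57, 3.08, 2.83 and 1.67 TPM in the same order and 0 to 0.44 on side B. WT 3 was the lowest of side A for both and WT 5 the highest.

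The lateral eminence and the striatum, the structure it forms, gave 19 of 21 tested genes higher in side A. Over all tested genes 55.3% were higher. The median log2 difference of the list was 0.30, against 0.01 over all tested genes. Six3 and Pbx3 passed, beside 0.108% past the threshold and higher over all tested genes. Isl1, a LIM homeodomain factor of striatal projection neurons, was under the filter, with 1.03 TPM in WT 3, 7.35 in WT 5, 0.92 in cKO 2, 1.39 in cKO 3 and 4.64 in cKO 4, and 0 to 0.39 on side B. The sides did not overlap for Isl1. Meis1, a homeodomain factor of the eminences, had 3.14 to 8.05 TPM in side A and 1.01 to 3.71 in side B, with WT 3 under WT 1 (1.22, SE 0.20, not past the threshold). Foxp2, a forkhead factor of striatal and deep-layer cortical neurons, had 6.25 to 12.6 against 2.67 to 5.61 TPM without overlap (0.90, SE 0.21, not past the threshold). The dopamine receptor genes Drd1 and Drd2, which mark maturing striatal neurons, stayed at or under 0.37 TPM in every library.

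The defining genes of the medial ganglionic eminence and preoptic area were at or near 0 on both sides. Nkx2-1 had at most 0.10 TPM in any library, Lhx8 at most 0.29 and Shh, the ventral signal, at most 0.16. Gbx1, Gbx2 and Nkx6-2 stayed at or under 0.58. Of the 11 tested genes of this list 9 were higher in side A, beside 55.3% over all tested genes. Their median was 0.07, and none passed. Lhx6, a factor of interneurons born in the medial eminence, had 0.54 to 1.96 TPM in side A and 0.23 to 2.43 in side B, which overlapped fully (0.01). Nxph1, a neurexophilin gene of such interneurons, had 1.58 to 3.22 against 0.36 to 1.17 TPM without overlap (1.06, SE 0.20, not past the threshold). Of 6 tested genes listed for the caudal eminence 4 were higher, beside the same 55.3%. Calb2 was past the threshold, beside 0.108% over all tested genes. Nr2f2 lay at 0.21, Nr2f1 at 0.03, Prox1 at -0.08 and the serotonin receptor gene Htr3a at -0.51.

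**Figure D3:**
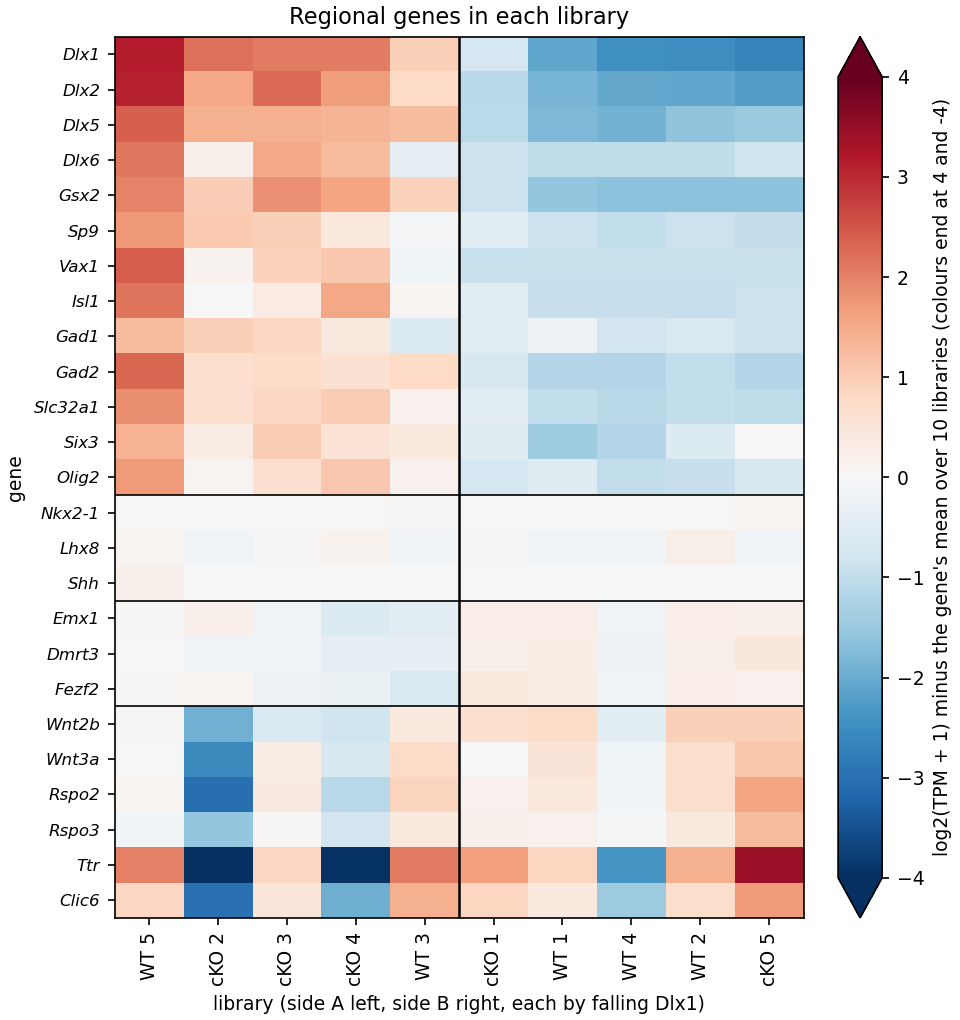
Level of 25 regional genes (y axis) in each library (x axis, side A left), as log2(TPM + 1) minus the gene's mean over 10 libraries, with colours ending at 4 and -4. Lines part ventral genes, the medial eminence genes Nkx2-1, Lhx8 and Shh, dorsal factors, and genes of the cortical hem and choroid plexus. The genes are a selection from longer lists, so the blocks do not stand for whole lists. The top block mostly follows the sides, which overlapped for Gad1. The second is flat because those genes are at or near 0. In the bottom block cKO 2 and cKO 5 stand apart, with Ttr at 0 and 689 TPM. In the ventral list, the log2 differences of Sp8 (0.07), Rgs16 (0.06) and Zfp503 (0.17) lay near 0, and Otx2 was lower in side A (-0.57). Of 20 dorsal progenitor factors, 7 were higher in side A and 13 lower, beside 55.3% higher over all tested genes.

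Among 15 tested GABA and interneuron genes 4 passed, all higher in side A: Gad2, Slc32a1, Dlx6os1 and Calb2. Gad2, Slc32a1 and Dlx6os1 were tested only through side A, so 3 of these 4 had to differ, and nothing is read from the count beside the 0.108% over all tested genes. Gad1, the other glutamate decarboxylase gene, was under the filter and had 0.25 TPM in WT 3, 3.31 in WT 5, 2.48 in cKO 2, 2.21 in cKO 3 and 1.35 in cKO 4, and 0.02 to 0.55 on side B. WT 3 lay inside the range of side B for Gad1, while its Gad2 level of 3.00 TPM was the second highest of side A. The peptide gene Sst had 0.68 to 17.9 TPM in side A and 0 to 9.42 in side B, with cKO 1 above 4 libraries of side A (1.65, not past the threshold). Abat, which encodes the enzyme that degrades GABA, had 5.59 to 8.94 TPM against 2.49 to 5.61, and the ranges overlapped by cKO 1 lying just above cKO 2 (0.83, not past the threshold). The cytokine receptor gene Cxcr4 lay at -0.16. In such bulk samples, fewer cells of a type and less RNA per cell cannot be told apart.

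No gene of the dorsal lists passed in either direction. Of 20 dorsal progenitor factors, all tested, 13 were lower in side A and 7 higher, beside 55.3% higher over all tested genes. Their median was -0.08. Emx1, the homeobox gene whose locus drives the Cre, had 127 TPM in WT 3, 178 in WT 5, 197 in cKO 2, 155 in cKO 3 and 119 in cKO 4, and 210, 210, 156, 210 and 201 TPM in WT 1, WT 2, WT 4, cKO 1 and cKO 5 (-0.27, SE 0.07). The ranges overlapped through WT 4. Dmrt3, a doublesex-related factor graded from the medial cortex, lay at -0.32 (41.7 to 55.8 against 46.4 to 75.4 TPM), Fezf2 at -0.30, Lhx2 at -0.22 and Pax6 at 0.04. Intermediate progenitor genes were lower in 12 of 16 and higher in 4 (median -0.06). Cortical neuron genes were lower in 13 of 21 and higher in 8 (median -0.09), both beside the same 55.3% higher over all tested genes. Genes of the border between pallium and subpallium were higher in 8 of 10 tested, beside 55.3% over all tested genes. Their median was 0.05, with Lmo4 at 0.45 and Sfrp2, an inhibitor of Wnt signalling made there, at 0.04. Cajal-Retzius genes were higher in 9 of 11, beside the same 55.3%, with a median of 0.16. Calb2 alone passed, beside 0.108% over all tested genes.

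**Figure D4:**
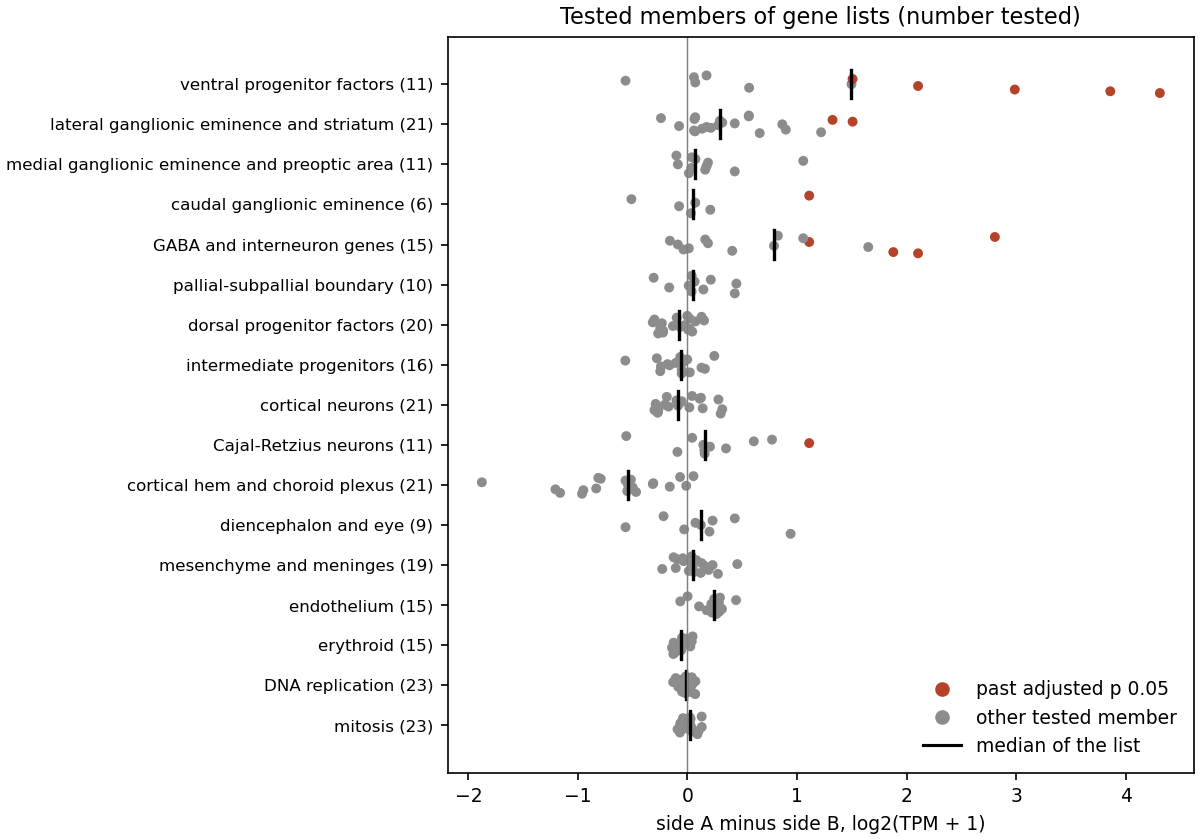
Log2 difference between the sides (x axis, side A minus side B, fitted with litter) of each tested member of 17 gene lists (y axis, number tested in brackets). Black bars are medians and coloured points are past an adjusted p of 0.05. Coloured points stand in the ventral, lateral, caudal, GABA and Cajal-Retzius lists, and the hem and choroid plexus list lies to the left of 0 with a median of -0.54. Members tested only through side A are included.

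The cortical hem is the medial edge of the cortex that secretes Wnt and Bmp signals, and the choroid plexus lies beside it. Of 21 tested genes of the 2 structures, 20 were lower in side A and 1 higher, beside 55.3% higher over all tested genes. The median was -0.54, with no gene past the threshold. Wnt2b, a hem ligand, had 8.45 TPM in WT 3, 6.44 in WT 5, 0.88 in cKO 2, 3.73 in cKO 3 and 3.12 in cKO 4, and 11.0, 12.8, 4.32, 10.4 and 12.7 in WT 1, WT 2, WT 4, cKO 1 and cKO 5 (-1.16, SE 0.42). The ranges overlapped through WT 4. Ttr, the transthyretin gene of the choroid plexus, had 267 TPM in WT 3, 251 in WT 5, 0 in cKO 2, 110 in cKO 3 and 3.04 in cKO 4, against 112, 168, 11.3, 196 and 689 on side B. The secreted Wnt enhancers Rspo1, Rspo2 and Rspo3 lay at -0.95, -1.21 and -0.83. The libraries at the ends of the range were mostly the same: cKO 2 was the lowest of all 10 for 18 of the 21 genes and cKO 5 the highest for 12. Without cKO 2 the median was -0.18, with 16 of 21 lower. Litter 5 has 1 library on each side, so with litter as a term, leaving out cKO 5 or WT 5 gives the same fit. Either way the median was -0.39, with 17 of 21 lower, and cKO 5 cannot be singled out. It was further from 0 without WT 4, at -1.05, without cKO 3, at -0.82, and without WT 3, at -0.78, with 21 of 21 lower without WT 4 and without WT 3. Without cKO 2 and cKO 5 it was 0.11, with 16 of 21 higher, a choice made after seeing the data. The median of the hem and choroid plexus list thus stayed under 0 without any 1 library, and turned when cKO 2 and cKO 5 were both left out.

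Markers of other cell types were read in the same way. Endothelial genes were higher in side A in 14 of 15, beside 55.3% over all tested genes. Their median was 0.24, with none past the threshold. Their summed level was 214 to 330 TPM in side A and 202 to 273 in side B, and without WT 5 or cKO 5 the median was -0.02, with 9 of 15 lower. Mesenchyme and meninges genes had a summed level of 518 to 1483 TPM in side A and 510 to 843 in side B, with a median of 0.05 over 19 genes. WT 3 was the highest library for 16 of these 19. Twist1, a mesenchymal factor, had 32.8 TPM in WT 3 and 32.3 in cKO 4, both in side A, and 3.36 to 7.23 in the other 8 libraries. The median of the mesenchyme list was -0.04 without WT 3 and -0.10 without WT 4. Microglia genes had a median of 0.04, pericyte genes 0.16, erythroid genes -0.06, and diencephalon and eye genes 0.12, with Barhl2 at 0.94. Their part in the ventral differences was not tested. Proliferation and housekeeping lists lay close to 0, at -0.01 for DNA replication, 0.02 for mitosis, -0.03 for cytosolic ribosome genes and -0.05 for glycolysis.

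A single gene past the threshold was lower in side A. AW047730, a noncoding transcript on chromosome 3 (88200623 to 88203481), had 86.2 to 117 TPM in side A and 114 to 159 in side B (-0.44, SE 0.06). It overlaps AI849053 on the opposite strand, which lay at -0.43 and did not pass, and without strand use their reads cannot be told apart. Next in rank by p, given as values that did not pass, were the processed pseudogenes Gm49037 (-2.98), Gm15900 (-1.41) and Gm9843 (-0.46), whose reads may belong to parent copies, E330013P04Rik (-0.62), the dystrophin gene Dmd (-0.49), AI849053, Dmrt3, the receptor gene Tnfrsf19 (-0.26) and the unprocessed pseudogene Spr-ps1 (-0.71). Only for E330013P04Rik and Dmd among these did every side A library lie below every side B library. Of the Hedgehog response genes, 8 of 10 tested were lower in side A and 2 higher, beside 55.3% higher over all tested genes. Their median was -0.06. The coreceptor gene Cdon lay at -0.36 and the transducer gene Smo at -0.14, and Ptch1, receptor and target of the pathway, at 0.75. Of 10 tested retinoic acid genes 6 were higher, beside 55.3% over all tested genes.

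Genotype is given by the labels and was not used to form the sides, so its relation to the ventral genes can be tested. Dlx1 had 0.36 to 65.3 TPM (median 0.79) in the 5 WT libraries and 0.18 to 33.6 (median 29.9) in the 5 cKO libraries. The ranges overlapped fully. The mean log2(TPM + 1) was 1.17 higher in cKO, with a two-sided exact permutation p of 0.405 over all 252 splits into 5 and 5, and p of 0.483 over the 60 arrangements made within litters. The smallest p these permutations allow are 0.00794 and 0.0167. For Dlx2, Dlx5, Gsx2 and Gad2 the exact permutation p over all splits were 0.563, 0.603, 0.452 and 0.857, and adjusted over the 5 genes they were 0.754 or more. A difference between the genotypes in these genes was therefore not resolved, and with 5 libraries each this does not show that there was none.

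The comparison of cKO with WT was then refitted with the side as a term, to ask how far the uneven ventral level bears on it. Zbtb7a, the deleted gene, was read first. On side A it had 7.20 and 9.54 TPM in WT and 3.52, 4.73 and 5.96 in cKO, and on side B 12.53, 11.2 and 7.46 in WT and 4.57 and 3.50 in cKO. The genotypes did not overlap on either side. The log2 difference was -0.99 both without the side term (SE 0.19) and with it (SE 0.20), and did not pass over all genes (limma adjusted p = 0.615 and 1.00). Across genes, 5 passed with litter alone (0.0361% of those tested) and 4 with litter and side (0.0289%). Gm9855, a processed pseudogene on chromosome 10, was higher in cKO by 3.30 in both fits (limma adjusted p = 2.78e-05 with side). The thymine DNA glycosylase gene Tdg was at -0.78 and -0.80 (adjusted p = 0.00612 with side), Gm3055 at -1.11 and -1.12 (0.0430) and Gm32687 at -2.58 in both (0.000506). Gm5597, at -1.49 and -1.48, no longer passed with the side term (limma adjusted p = 0.0186 and 0.0635). Gm9855 and Gm5597 are annotated as processed pseudogenes, and their values are uncertain where reads are shared with a parent copy. The same holds for a parent gene. From WT to cKO the mean of Tdg went from 226 to 134 TPM and that of Gm9855 from 11.6 to 124. The parent copy of Gm9855 was not looked up, and sharing of reads between it and Tdg was not tested. Gm3055, Gm32687 and Tdg start at 81742821, 81863934 and 82629828 on chromosome 10, the chromosome of Zbtb7a (81135220 to 81152995), and a part of this position in the values was not tested. Leaving out WT 2, WT 3, WT 5, cKO 1, cKO 3 or cKO 5 left 3 genes with litter alone, and leaving out WT 1, WT 5, cKO 1 or cKO 5 left 2 with litter and side.

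**Figure D5:**
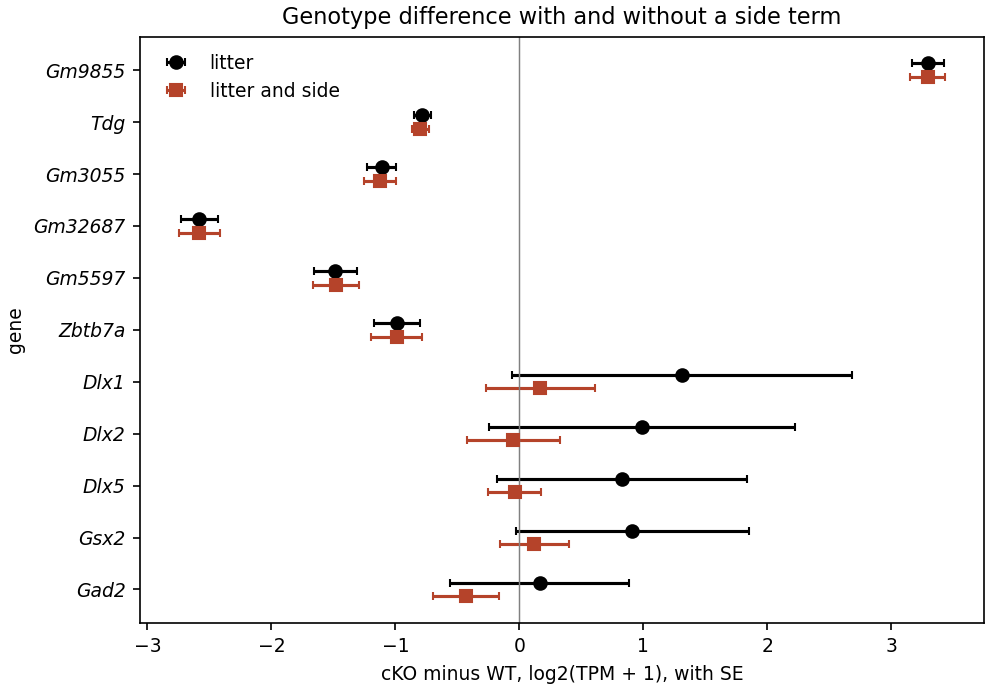
Difference of cKO minus WT (x axis, log2(TPM + 1), with SE as bars) of 11 genes (y axis) fitted with litter alone (circles) and with litter and side (squares). The 5 genes that passed with litter alone and Zbtb7a kept their estimates, while Dlx1 went from 1.31 to 0.17.

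The side term moved the genotype estimate of most genes little. The absolute shift had a median of 0.02 on the log2 scale and a 95th percentile of 0.12, and it exceeded 0.5 for 21 of 13833 genes. Among the ventral genes, Dlx1, which set the sides, went from 1.31 (SE 1.37) to 0.17 (SE 0.44). Dlx2 went from 0.99 to -0.05, Dlx5 from 0.83 to -0.04 and Gsx2 from 0.91 to 0.12. The shift of Dlx1 follows from the choice of the sides, and the other 3 genes divide the libraries in the same way. Whether the genotype difference itself differed between the sides was tested by an interaction, which has 4 residual degrees of freedom. A single gene passed (0.00723%): the processed pseudogene Gm7993 (chromosome 5, 95974240 to 95975623), with an interaction of -5.31 (SE 0.33, limma adjusted p = 0.00229). It had 31.6 TPM in WT 3, 40.8 in cKO 1 and 3.16 to 6.83 in the other 8 libraries, so 1 library on each side gave the value. Without cKO 1 it did not pass.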

How the data were processed

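RNA-seq values of 10 embryonic cortices were read from the authors' deposited table of TPM per gene. Per the submitters' processing notes, cutadapt, featureCounts, DESeq2 and the mm10 build were used, with no versions. The aligner, the tool that made TPM and the use of strand are not given in the sources used here. Depth cannot be recovered from TPM, so no count model was run and no counting interval is given. Of 24814 genes, 24774 matched GENCODE M21 on GRCm38, and 26 symbols that had been turned into dates were restored. The table has 7 unnamed columns, of which 5 hold values, at most 4 in a column, and they were not used. Genotype and litter came from the labels, and the sides from Dlx1 TPM (10 or more against under 5).

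Genes reaching 1 TPM in 5 or more libraries were fitted with limma 3.58.1 in R 4.3.3 on log2(TPM + 1), with litter as a term, a mean-variance trend and Benjamini-Hochberg adjustment over 13833 genes at 0.05. A fold change on this scale understates that of low genes. The fit was tested on simulated data. The contrast of the sides is descriptive. Genotype was fitted with litter, with litter and side, and with their interaction, and 5 genes were tested by exact permutation. Alternatives were the pseudocount, filter, normalization, weights, covariates, litters and libraries left out.

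The members and lists were chosen with earlier results of these data known. Named were Dlx1, Dlx2, Dlx5, Gsx2, Gad2 and Zbtb7a; up to 12 genes a direction past the threshold with the largest difference and the same sign in each litter, filled to 10 by smallest p; the 2 to 4 members of each list with the smallest p; and up to 6 genes past the threshold in each genotype fit. Other genes, among them Dlx6, Sp9, Vax1, Isl1, Gad1, Nkx2-1, Lhx8, Shh, Ttr, Twist1, Emx1, Pax6, Pid1 and E130006D01Rik, were chosen after their values were seen. Some members of the lists are not reported here.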

Additional observations from a re-analysis of the deposited data

Results flagged for a closer look

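Within each side the library farthest from the others was compared with its nearest neighbour, for 29 genes named in the text. Gaps and ranges were taken on log2(TPM + 1), and the levels below are given in TPM. Of 58 sets of 5 libraries, 9 had a gap above 0.71 of their range (Dixon's critical value at 95%). Chance flags about 1 in 20 sets of independent values, a rate that does not apply here: many of the genes were chosen after their values were seen, the ventral genes share their order of libraries with Dlx1, and Gm7993 was named from the interaction that WT 3 and cKO 1 gave. In side A, WT 5 stood apart for Dlx5 at 18.45 TPM, with the next library at 9.06, and for Gad2 at 10.36 TPM, with the next at 3.00. In side B, cKO 1 stood apart for 6 genes. Its level was 0.71 TPM for Gsx2, 2.81 for Dlx1as, 0.58 for Slc32a1, 0.44 for Sp9 and 0.39 for Isl1, and the next libraries had 0.08, 0.41, 0.11, 0.10 and 0.06. The sixth was the processed pseudogene Gm7993, at 40.82 TPM in cKO 1 with the next at 6.83. In side A, WT 3 stood apart for Gm7993 at 31.6 TPM, with the next at 4.96. The difference between cKO and WT in Gm7993 also differed between the sides, by -5.31 on the log2 scale (limma interaction, adjusted p = 0.00229).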

How the results depend on the processing

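The number of genes past the threshold between the sides, 16 in the report, was 7 with no filter, 7 with a filter at 5 TPM, 7 with an Xist covariate, 25 with array weights, 8 with genotype added, 0 within litter 1 (727 at an unadjusted p under 0.05 in limma), 2 within litters 3 and 5, and 41 with Dlx1 as a continuous term. Chosen after seeing the data, it was 5 without cKO 2 and cKO 5 and 6 without litter 3. Leaving out 1 library gave 5 to 18. For cKO against WT, 5 in the report, it was 3 with a filter at 5 TPM, 3 with Xist and 2 with the replicate number as a block, and 3 to 5 without 1 library. With side as a term, 4 in the report, it was 2 with Xist, 2 with the replicate block and 2 to 4 without 1 library. The interaction, 1 in the report, gave 2 with a pseudocount of 0.1, 13 with no filter and 1 to 4 without 1 library. Dlx1 between genotypes was 0.70 to 2.10 on the log2 scale without 1 library and 1.51 with a pseudocount of 0.1. The cause of these changes was not tested. Deviations of same-numbered libraries correlated at 0.268, 0.077, -0.291, 0.303 and -0.168 for numbers 1 to 5. Differently numbered libraries were not compared, so these values cannot decide whether the number pairs animals. By the labels, WT 3 and cKO 3 came from different litters. Of 1995 values over 133 named genes and 15 settings, 164 moved by at least the standard error of the main fit. A reversal of sign was counted only for genes past the threshold between the sides in the main fit, and 0 reversed. Settings that changed the filter, normalization or weights, or kept only some litters, were not part of this count. Depth is unknown, which limits what can be said of values near 0.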

Other observations

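Among the genes not past the threshold between the sides, 12 differed by more than Slc32a1, 6 higher and 6 lower in side A, and 8 of the 12 were processed pseudogenes. The sides overlapped for 11 of them. Their standard errors were 0.473 to 2.12 on the log2 scale, against 0.063 to 0.408 for the 16 genes past the threshold. These genes were chosen after their values were seen.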
